A study of Mus musculus with 5 samples.

Results

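The genes described here are 44 components of the route by which a secreted protein enters the endoplasmic reticulum (ER) and travels on to the Golgi, followed in mouse plasma cells by single-cell RNA sequencing. They were chosen by name for their function, not by a measured value, and all 44 were found among the 33456 genes counted. By role they are 6 of the signal recognition particle and its receptor, 6 of the translocon, 4 of the TRAP complex, 5 of the signal peptidase complex, 6 of the COPII coat with Sar1, 4 cargo receptors, 3 KDEL receptors, 7 of the COPI coat with Arf, and 3 p24 proteins. Plasma cells came from untreated, unimmunized male C57Bl6/N mice aged 8 to 12 weeks, with 3 mice pooled per sample, and were sorted in 2 rounds for high CD138 (syndecan-1) without Ly6g or CD11c. The sort then used B220, which is CD45 in one of its splice forms, and 2NBDG, a fluorescent analog of glucose that cells take up. The 5 groups, with 1 library each, were bone marrow B220-2NBDG+ cells, splenic B220+ cells with (B220+2NBDG+) or without (B220+2NBDG-) 2NBDG, and splenic B220- cells with (B220-2NBDG+) or without (B220-2NBDG-) 2NBDG. Below, a splenic library is called by its sort alone.

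An antibody chain with a signal peptide is recognised on the ribosome by the signal recognition particle, docked at the ER membrane by its receptor and threaded through the Sec61 channel, next to which the TRAP complex sits and signal peptidase cuts the signal peptide off. Folded cargo leaves in COPII-coated carriers with the help of cargo receptors, while KDEL receptors and COPI-coated carriers bring escaped ER proteins back. Plasma cells enlarge this machinery as they differentiate, largely under the transcription factor XBP1, and depend on it for antibody secretion.

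Promoters were looked up because XBP1 binds sites with an ACGT core. RefSeq promoter sequences on GRCm38.p6, from 250 bases before to 50 bases after each gene's start, were available for 34 of the 44 genes and not for Kdelr2, Lman1, Sec11c, Sec61a1, Spcs3, Srp19, Srp68, Ssr2, Tmed2 and Tram1. The letters ACGTGG, the core of the XBP1 site, were found on either strand in 18 of the 34 (52.9%), against 2539 of 27025 promoters of all genes (9.40%). The longer TGACGTGG, which contains it, was found in Arf1, Copb1, Copb2, Kdelr3 and Sec24d (14.7%), against 0.714% of all promoters. A match is a run of letters in this window and says nothing of binding. The 250 bases before the start are shown for Copb2 (chr9:98563481-98563730, plus strand) and Sec24d (chr3:123267246-123267495, plus strand), which were over 2-fold higher in 1 comparison below, and for 2 TRAP genes that differed in their pattern over the libraries, Ssr3 (chr3:65392554-65392803, minus strand) with the core and Ssr4 (chrX:73786773-73787022, plus strand) without it. Each is written 5′ to 3′ on the gene's strand, and capitals mark ACGTGG or its reverse complement CCACGT.
Copb2: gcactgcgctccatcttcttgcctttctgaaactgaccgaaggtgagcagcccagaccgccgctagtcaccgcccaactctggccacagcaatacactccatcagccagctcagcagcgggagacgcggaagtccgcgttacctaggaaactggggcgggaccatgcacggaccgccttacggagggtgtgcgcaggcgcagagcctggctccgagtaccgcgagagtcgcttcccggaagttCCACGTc
Sec24d: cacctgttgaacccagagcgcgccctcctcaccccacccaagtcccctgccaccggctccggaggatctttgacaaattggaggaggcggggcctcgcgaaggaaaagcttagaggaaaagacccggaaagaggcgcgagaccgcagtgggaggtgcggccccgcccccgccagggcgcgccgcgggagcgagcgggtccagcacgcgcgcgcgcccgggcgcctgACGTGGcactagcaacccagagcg
Ssr3: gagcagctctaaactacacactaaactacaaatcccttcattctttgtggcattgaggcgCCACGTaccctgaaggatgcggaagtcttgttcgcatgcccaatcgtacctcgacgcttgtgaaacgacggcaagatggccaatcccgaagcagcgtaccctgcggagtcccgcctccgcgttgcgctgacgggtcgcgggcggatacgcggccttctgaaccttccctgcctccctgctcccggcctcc
Ssr4: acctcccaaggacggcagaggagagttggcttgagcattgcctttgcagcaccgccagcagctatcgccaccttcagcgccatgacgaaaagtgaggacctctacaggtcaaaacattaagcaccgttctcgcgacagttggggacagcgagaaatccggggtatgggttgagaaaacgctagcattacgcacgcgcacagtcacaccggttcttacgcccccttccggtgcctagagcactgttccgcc

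The libraries held between 894 and 1296 cell barcodes and between 9451886 and 15591435 UMIs, with median counts of 9824 to 15502 UMIs per cell. Levels are counts scaled to CPM over a library's non-immunoglobulin UMIs, since immunoglobulin genes took 47.0% to 64.8% of all UMIs, and a UMI in these 3' libraries marks 1 transcript end whatever the transcript's length. A group had no replicates, so ratios carry exact 95% intervals for counting error only and no p-value. The cells had the markers of plasma cells, with 402 to 609 CPM of Sdc1, which encodes CD138, and 3237 to 4365 CPM of Xbp1. The B220+2NBDG- library stood apart. Cells of a cluster with cycling genes made up 14.5% of it, against 0% to 1.39% of the other libraries. The summed level of 23 cycling markers was 1865 CPM there and 40.2 to 206 CPM elsewhere. Jchain, which encodes the joining chain of IgM and IgA and alone took a large part of the total, had 100388 CPM in B220+2NBDG- cells and 193780 to 296793 CPM in the other libraries. Over all 5 libraries, 11 of 5476 barcodes were of a sequence seen in more than 1 library.

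Summed over the 44 genes, the machinery took 2.11% of non-immunoglobulin UMIs in bone marrow cells, 3.11% in B220+2NBDG+ cells, 3.35% in B220+2NBDG- cells, 2.37% in B220-2NBDG+ cells and 2.47% in B220-2NBDG- cells. Both B220+ libraries were therefore above both splenic B220- libraries, and bone marrow was lowest. With Jchain left out of the total, the sums were 29940 CPM in bone marrow, 38578 in B220+2NBDG+, 37200 in B220+2NBDG-, 32447 in B220-2NBDG+ and 32092 in B220-2NBDG- cells, so the order of the libraries within B220+ and within B220- cells turned. Of the 44 genes, 38 were highest in B220+2NBDG- cells, 5 in B220+2NBDG+ cells (Srp14, Ssr4, Spcs1, Spcs3 and Tmed10) and 1 in B220-2NBDG- cells (Mcfd2), while 41 were lowest in bone marrow. With Jchain left out of the total, 27 were highest in B220+2NBDG- cells and 12 in B220+2NBDG+ cells, and 34 were lowest in bone marrow. These counts were not made over all genes. With Jchain in the total, the median log2 ratio over all genes tested was 0.24 for B220+2NBDG- over B220-2NBDG- cells. It was -0.17 for B220+2NBDG+ over B220+2NBDG- cells and -0.16 for bone marrow over B220-2NBDG+ cells. Per cell, 127, 152, 184, 105 and 97.5 UMIs of the 44 genes were counted in the same order of libraries. Set against immunoglobulin UMIs, the B220+2NBDG- library had 37.7 UMIs of the machinery per 1000, and the others 13.2 (bone marrow), 16.9 (B220+2NBDG+), 17.0 (B220-2NBDG+) and 14.3 (B220-2NBDG-).

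**Figure D1:**
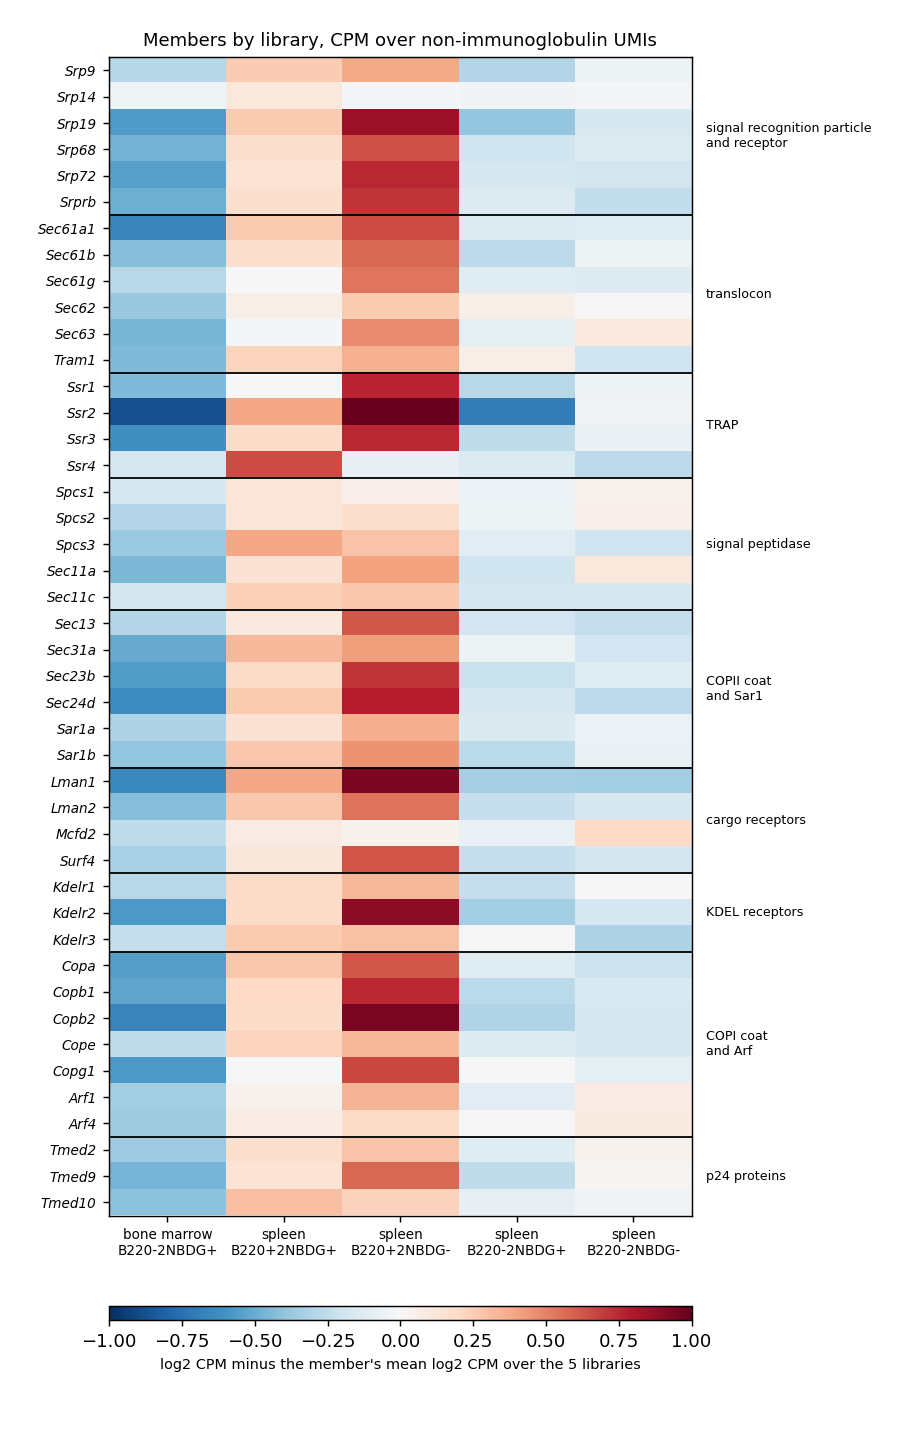
Levels of the 44 genes in the 5 libraries, as log2 CPM minus each gene's own mean over the libraries (colour). Rows are grouped by role; the B220+2NBDG- column is red in most rows and the bone marrow column blue, with Ssr4, Srp14, Spcs1 and Mcfd2 among the exceptions.

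The 2 B220 comparisons share no library. In 2NBDG- cells, 23 of the 44 genes were at least 1.5-fold higher in B220+ than in B220- cells and 0 were lower. Over all 4026 genes that reached 25 CPM and 50 UMIs in the higher of the 2 libraries, 21.0% were higher and 6.41% lower by the same rule. The median log2 ratio of the 44 genes was 0.61, against 0.24 over all genes tested. In 2NBDG+ cells, 4 of the 44 were higher in B220+ cells and 0 lower, against 9.02% and 3.77% of all 3715 genes tested. The median log2 ratio was 0.37 for the 44 genes and 0.14 over all genes tested. At least 2-fold higher were Ssr2 in 2NBDG+ cells (2.45% of all genes) and Ssr2, Lman1, Srp19, Kdelr2, Sec24d and Copb2 in 2NBDG- cells (5.91% of all genes), and 0 were 2-fold lower (1.48% and 3.18% of all genes). Ssr2, Lman1 and Srp19 were past 1.5-fold in both, which is 3 of the 4 and 3 of the 23, and 42 of the 44 genes had a ratio above 1 in both comparisons. These overlaps were not counted over all genes. The total mattered for these counts. Without Jchain in it, log2 ratios shifted by -0.23 in 2NBDG- cells and by -0.14 in 2NBDG+ cells. The counts of higher genes became 15 and 2, against 10.1% and 5.35% of all genes, and 34 of the 44 were above 1 in both. Ssr2 stayed past 1.5-fold in both comparisons. In B220+2NBDG+ and B220-2NBDG+ cells, Lman1 then had 698 and 467 CPM and Srp19 316 and 223, short of 1.5-fold. In 2NBDG- cells Ssr2 and Lman1 stayed past 2-fold, and Srp19, Kdelr2, Sec24d and Copb2 did not. Over all UMIs, immunoglobulin included, the shifts were 0.53 and -0.25. The counts became 40 and 1, against 72.4% and 4.03% of all genes, and 33 of the 44 were above 1 in both. The distance between the median of the 44 genes and that of all genes tested was 0.37 log2 in 2NBDG- cells and 0.23 in 2NBDG+ cells, and without Jchain it was 0.39 and 0.24.

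**Figure D2:**
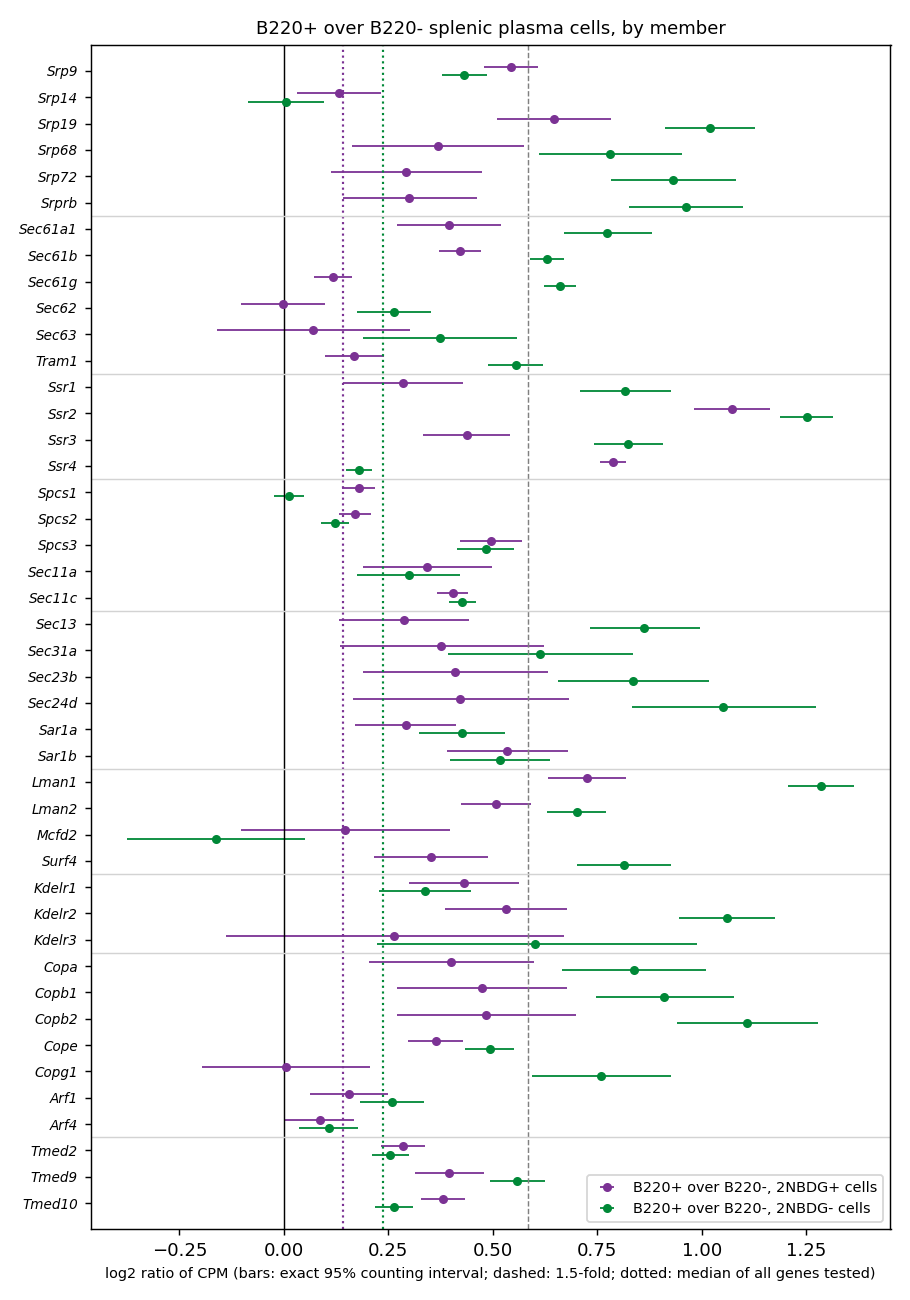
Log2 ratio of CPM, B220+ over B220- splenic cells, for each of the 44 genes in 2NBDG+ (purple) and 2NBDG- (green) cells, with exact 95% counting intervals. The dashed line marks 1.5-fold and the dotted lines the medians of all genes tested (0.14 and 0.24 log2); 23 green and 4 purple points lie past the dashed line.

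Among the genes that bring a nascent chain to the membrane, Srp19, a protein needed to assemble the signal recognition particle, varied most. Srp19 (chr18:34330847-34336599, plus strand, GRCm38) had 144 CPM in bone marrow, 255 in B220+2NBDG+, 386 in B220+2NBDG-, 163 in B220-2NBDG+ and 190.2 in B220-2NBDG- cells. Both B220+ libraries were above all B220- libraries. The B220+ over B220- ratio was 1.56 (95% interval 1.42 to 1.72) in 2NBDG+ cells and 2.03 (1.88 to 2.19) in 2NBDG- cells. Srp68 and Srp72, which form a dimer on the particle's RNA, and Srprb, the membrane-spanning receptor subunit, were 1.72-fold, 1.91-fold and 1.95-fold higher in B220+2NBDG- than in B220-2NBDG- cells, and 1.23-fold to 1.29-fold higher in B220+2NBDG+ than in B220-2NBDG+ cells. The Alu domain pair that pauses elongation behaved unlike them and unlike each other. Srp9, the gene with the highest level in this role, had 732 CPM in bone marrow, 1062 in B220+2NBDG+, 1158 in B220+2NBDG-, 729 in B220-2NBDG+ and 859 in B220-2NBDG- cells. Its partner Srp14 had 335, 371, 342, 338 and 341 CPM in the same order, a nearly flat profile. Its B220 ratio was 1.0 (0.942 to 1.07) in 2NBDG- cells. Without Jchain in the total Srp14 had 476, 460, 380, 464 and 443 CPM, and was lowest in B220+2NBDG- cells.

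In the translocon the channel subunits were the ones past 1.5-fold in 2NBDG- cells, with Jchain in the total. Without Jchain, Sec61g had 2848 and 2106 CPM in B220+2NBDG- and B220-2NBDG- cells, and Sec61a1 395 and 270. None of the 6 genes then reached 1.5-fold. The levels and ratios below have Jchain in the total. Sec61g, the smallest subunit and the one with the highest level, had 1463 CPM in bone marrow, 1763 in B220+2NBDG+, 2562 in B220+2NBDG-, 1626 in B220-2NBDG+ and 1620.1 in B220-2NBDG- cells. The B220+2NBDG- library was far above the other 4 for this gene. The B220 ratios in 2NBDG- cells were 1.58 (1.54 to 1.62) for Sec61g, 1.55 (1.5 to 1.59) for Sec61b and 1.71 (1.59 to 1.84) for Sec61a1, the pore-forming subunit. Sec62 and Sec63, which assist post-translational entry, and Tram1, a membrane protein beside the channel, had ratios of 1.2, 1.29 and 1.47 and stayed under that fold. In 2NBDG+ cells none of the 6 reached it, with log2 ratios between 0.00 for Sec62 and 0.42 for Sec61b.

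The 4 subunits of TRAP, the translocon-associated protein complex, fell into unlike patterns. Ssr2 (TRAP beta, chr3:88575876-88588419, plus strand) had 295 CPM in bone marrow, 709 in B220+2NBDG+, 1262 in B220+2NBDG-, 337 in B220-2NBDG+ and 530.3 in B220-2NBDG- cells. It was higher in B220+ cells at either 2NBDG level and lower in 2NBDG+ cells at either B220 level. The B220 ratio was 2.1 (1.98 to 2.24) in 2NBDG+ cells and 2.38 (2.28 to 2.49) in 2NBDG- cells. Ssr4 (TRAP delta, chrX:73787028-73790830, plus strand) had 2936 CPM in bone marrow, 5179 in B220+2NBDG+, 3109 in B220+2NBDG-, 3001 in B220-2NBDG+ and 2746 in B220-2NBDG- cells. It was the most abundant of the 44 genes in every library, though Sec11c was close in B220+2NBDG- cells at 3099.7 CPM. Its own level was highest in B220+2NBDG+ cells, 1.73-fold (1.69 to 1.76) above B220-2NBDG+ cells. Its B220 ratio in 2NBDG- cells was 1.13 (1.11 to 1.16), below that of Ssr1 (1.76) and Ssr3 (1.77), the alpha and gamma subunits. A processed pseudogene, Gm10704, lies on the opposite strand within Ssr2 and held 5.70% as many UMIs as Ssr2 over all libraries.

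**Figure D3:**
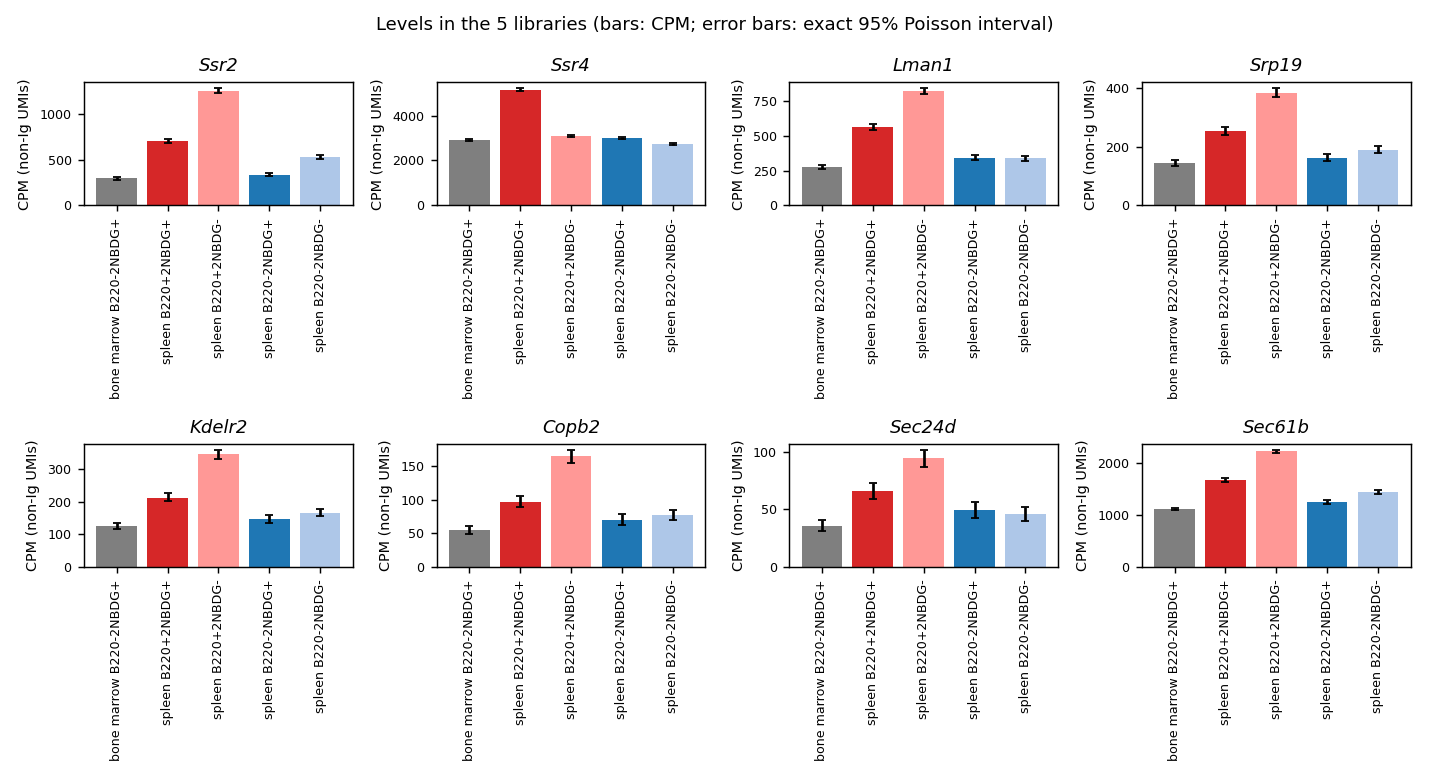
CPM of 8 of the genes in the 5 libraries, with exact 95% Poisson intervals for counting error. Ssr2, Lman1, Srp19, Kdelr2, Copb2, Sec24d and Sec61b are highest in B220+2NBDG- cells, and Ssr4 in B220+2NBDG+ cells at 5179 CPM.

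Of the signal peptidase genes, Sec11c, Spcs1 and Spcs2 were abundant, at 1908 CPM or more in every library. Sec11c, which encodes a catalytic subunit, had 2265 CPM in bone marrow, 3035 in B220+2NBDG+, 3099.7 in B220+2NBDG-, 2294 in B220-2NBDG+ and 2305 in B220-2NBDG- cells. The B220+ libraries were again above the rest, by 1.32-fold (1.29 to 1.36) in 2NBDG+ cells and 1.34-fold (1.31 to 1.38) in 2NBDG- cells. The other catalytic subunit, Sec11a, and the accessory subunits Spcs1, Spcs2 and Spcs3 had B220 ratios between 1.01 for Spcs1 and 1.40 for Spcs3 in 2NBDG- cells, and 0 of the 5 genes reached 1.5-fold in either B220 comparison. Reads of Sec11a could be shared with Nmb, a same-strand neighbour whose UMIs came to 6.67% of those of Sec11a.

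Of the COPII genes, which form the coat of carriers leaving the ER, the coat subunits had higher B220 ratios in 2NBDG- cells than the genes of Sar1, the small GTPase that starts coat assembly, which was not so in 2NBDG+ cells. Sec24d, a cargo-binding subunit (chr3:123267455-123365641, plus strand), had 35.6 CPM in bone marrow, 65.8 in B220+2NBDG+, 94.8 in B220+2NBDG-, 49.1 in B220-2NBDG+ and 45.7 in B220-2NBDG- cells. The B220+2NBDG- library was over 2-fold above B220-2NBDG- cells, with a ratio of 2.07 (1.78 to 2.42), and the ratio in 2NBDG+ cells was 1.34 (1.12 to 1.60). Sec13 and Sec31a of the outer coat and Sec23b of the inner coat were 1.82-fold, 1.53-fold and 1.78-fold higher in B220+2NBDG- than in B220-2NBDG- cells. Sar1a, the GTPase gene with the highest level in this role, had 200.03 CPM in bone marrow, 273 in B220+2NBDG+, 319 in B220+2NBDG-, 223 in B220-2NBDG+ and 237 in B220-2NBDG- cells, with a ratio of 1.34 (1.25 to 1.44) in 2NBDG- cells, and Sar1b had 1.43 (1.32 to 1.55). In 2NBDG+ cells Sar1b was the highest of the 6, at 1.45 (1.31 to 1.60), with 1.22 for Sar1a and 1.22 to 1.34 for the coat subunits.

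Among the cargo receptors, Lman1 gave the widest B220 ratio of all 44 genes in 2NBDG- cells. Lman1 (ERGIC-53, a lectin that carries glycoproteins out of the ER; chr18:65980738-66022580, minus strand) had 275 CPM in bone marrow, 563 in B220+2NBDG+, 823 in B220+2NBDG-, 341 in B220-2NBDG+ and 338 in B220-2NBDG- cells. Levels in the 3 B220- libraries lay below both B220+ libraries, with ratios of 1.65 (1.55 to 1.76) in 2NBDG+ and 2.44 (2.31 to 2.57) in 2NBDG- cells. Mcfd2, the soluble partner that forms a cargo receptor with Lman1, did not share the profile. It had 48.7 CPM in bone marrow, 61.6 in B220+2NBDG+, 59.7 in B220+2NBDG-, 55.7 in B220-2NBDG+ and 66.9 in B220-2NBDG- cells, and the B220 ratio in 2NBDG- cells was 0.893 (0.771 to 1.03), the lowest of the 44. Lman2, a second lectin and the gene with the highest mean level in this role, had 391, 634, 764, 446 and 470.3 CPM in the same order of libraries, and was 1.63-fold (1.55 to 1.71) higher in B220+2NBDG- than in B220-2NBDG- cells. Surf4, a multi-spanning cargo receptor, was 1.76-fold (1.62 to 1.90) higher there. Its neighbour Surf2, on the opposite strand, held 4.50% as many UMIs, and reads could be shared only if counting ignored strand.

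On the return route, KDEL receptors bind ER residents that carry a KDEL-type tail and COPI carriers take them back. Kdelr2 (chr5:143403838-143421901, plus strand) had 125 CPM in bone marrow, 213 in B220+2NBDG+, 346 in B220+2NBDG-, 147 in B220-2NBDG+ and 166 in B220-2NBDG- cells. Kdelr1 had 176, 244, 269, 181 and 213 CPM and Kdelr3 18.1, 25.5, 26.1, 21.3 and 17.2 CPM in the same order. Kdelr2 was highest in B220+2NBDG- cells with or without Jchain in the total. Kdelr1 and Kdelr3 were highest there only with Jchain in it. Without Jchain, Kdelr1 had 303 CPM in B220+2NBDG+ and 299 in B220+2NBDG- cells, and Kdelr3 31.7 and 29.0. The B220 ratios in 2NBDG- cells were 2.08 (1.93 to 2.26) for Kdelr2, 1.26 (1.17 to 1.36) for Kdelr1 and 1.52 (1.17 to 1.98) for Kdelr3. Kdelr3 lies opposite Ddx17, which had about as many UMIs (107% of those of Kdelr3), and whether counting used strand is not given in the sources used here.

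Among the COPI coat genes chosen here, all but Cope were past 1.5-fold in 2NBDG- cells, with Jchain in the total. This does not extend to every COPI subunit, since Arcn1 and Copz2, which were not among those chosen, were not past it. Copb2 (beta prime subunit, chr9:98563721-98588382, plus strand) had 54.0 CPM in bone marrow, 97.0 in B220+2NBDG+, 165 in B220+2NBDG-, 69.4 in B220-2NBDG+ and 76.4 in B220-2NBDG- cells, a B220 ratio of 2.15 (1.92 to 2.42) in 2NBDG- cells. Copa, Copb1 and Copg1 had ratios of 1.79, 1.88 and 1.69. Without Jchain in the total, Copg1 had 159 and 110 CPM in B220+2NBDG- and B220-2NBDG- cells, short of 1.5-fold. Cope, the gene with the highest level in this role, had 692, 962, 1035, 748 and 736 CPM in the same order of libraries, and a ratio of 1.41 (1.35 to 1.46). Arf1 and Arf4, the GTPases that recruit the coat, had ratios of 1.2 and 1.08. Copa overlaps Ncstn on the opposite strand, which held 33.5% as many UMIs. The p24 proteins cycle between ER and Golgi with cargo, and 0 of the 3 genes reached 1.5-fold in either B220 comparison. Tmed2 had 997 CPM in bone marrow, 1438 in B220+2NBDG+, 1564 in B220+2NBDG-, 1181 in B220-2NBDG+ and 1311 in B220-2NBDG- cells, and the ratios in 2NBDG- cells were 1.19 for Tmed2, 1.2 for Tmed10 and 1.47 for Tmed9.

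The ratio between B220+ and B220- cells in 2NBDG- plasma cells was not the same in cells of each antibody class. Cells were assigned to IgG, IgA or IgM from their heavy-chain UMIs. In IgM cells (709 in B220+2NBDG- and 1079 in B220-2NBDG-), 27 of the 44 genes were at least 1.5-fold higher in B220+ cells, with a median log2 ratio of 0.76. In IgG cells (421 and 74) 2 of the 41 genes past the minimum level were higher, and in IgA cells (77 and 135) 1 of 38 was. The medians over the 44 genes were 0.15 in IgG and 0.16 in IgA cells. Set against all genes tested in the same class, of which 22.8%, 28.2% and 9.89% were higher in IgM, IgG and IgA cells, the median of the genes past the minimum lay 0.51 above the overall median in IgM cells, 0.13 below it in IgG cells and 0.06 above it in IgA cells. For Lman1 the log2 ratio was 0.56 in IgG, -0.04 in IgA and 1.56 in IgM cells, and for Ssr2 it was 0.40, 0.28 and 1.5. Summed over the 44 genes, B220-2NBDG- IgM cells had the lowest level of the 6 sums behind these ratios. The B220+2NBDG- cells had 33990 CPM (IgG), 30927 (IgA) and 33415 (IgM), against 32801, 30911 and 23116 CPM in B220-2NBDG- cells. In 2NBDG+ cells the medians were close to each other, at 0.22 in IgG, 0.27 in IgA and 0.24 in IgM cells. With 1 library per group, the difference between classes was not tested.

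**Figure D4:**
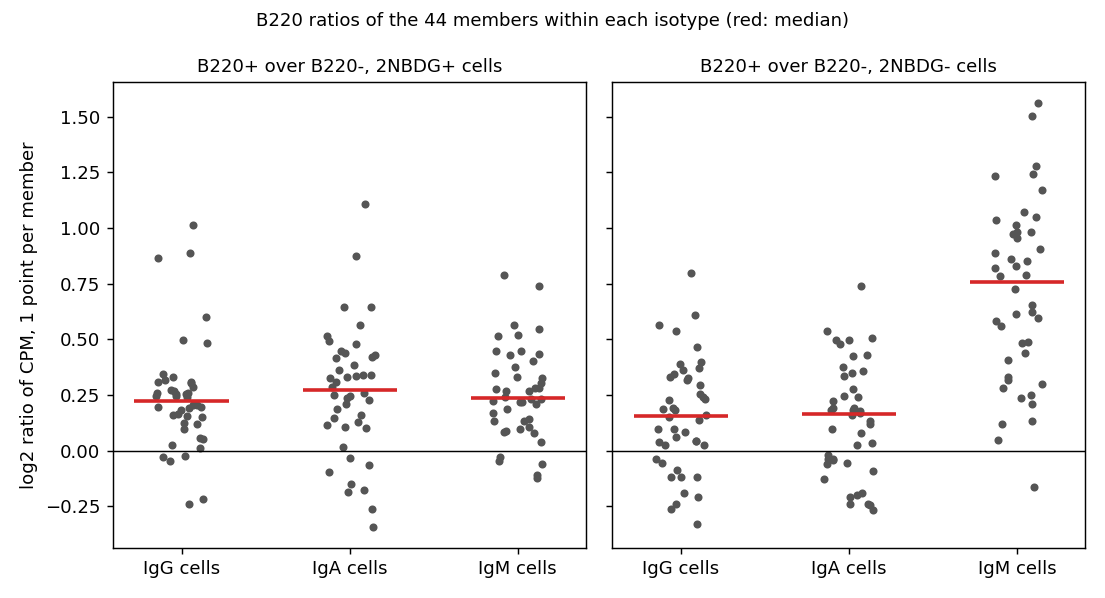
Log2 ratio of CPM, B220+ over B220-, for the 44 genes within IgG, IgA and IgM cells, in 2NBDG+ (left) and 2NBDG- (right) splenic cells; each point is a gene and the red line the median. In 2NBDG- cells the median is 0.76 in IgM cells and 0.15 and 0.16 in IgG and IgA cells, while the 3 medians in 2NBDG+ cells lie between 0.22 and 0.27.

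Cycling cells moved with the B220+2NBDG- library. Within it, 32 of the 44 genes had a higher CPM in the 176 cells of the cycling cluster than in the other cells. The median log2 ratio was 0.24, or 0.09 without Jchain in the total. Jchain had 33440 CPM in cycling cells and 127268 CPM in the other cells. The share of all genes that were higher in cycling cells was not counted. Summed over the 44 genes, the level was 33294 CPM in cycling cells and 33534 CPM in the other cells, a ratio of 0.993 (0.984 to 1.002). Kdelr2, Ssr2 and Srp19 lay highest in cycling cells, at log2 ratios of 0.87, 0.72 and 0.62. Ssr4 lay lowest, at -1.29. Without cycling-cluster cells in either library, 21 of the 43 genes past the minimum were at least 1.5-fold higher in B220+2NBDG- than in B220-2NBDG- cells. Over all genes tested 13.0% were higher, and the median log2 ratio of all 44 was 0.56. Ssr2, Lman1 and Sec24d were still over 2-fold higher, at log2 ratios of 1.12, 1.26 and 1.06, and Copb2, Srp19 and Kdelr2 were at 0.99, 0.91 and 0.85. In IgM cells without the cycling cluster 26 genes were higher, against 15.5% of all genes, and in IgG cells 2, against 18.9%.

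Between B220+ cells with and without 2NBDG, the genes were lower about as often as genes in general. Of the 44 genes, 1 was at least 1.5-fold higher in B220+2NBDG+ than in B220+2NBDG- cells and 7 were lower, against 3.61% and 14.4% of all 3987 genes tested. The median log2 ratio was -0.32 for the 44 genes and -0.17 over all genes. Ssr4 was the higher one, with a ratio of 1.67 (1.64 to 1.70). Ssr2, Copb2, Ssr1, Kdelr2, Copg1, Srp72 and Srp19 were the lower ones, from 1.78-fold (1.71 to 1.85) for Ssr2 to 1.51-fold (1.42 to 1.62) for Srp19. Lman1, at 1.46-fold (1.40 to 1.53) lower, was just short of the threshold. At 2-fold, 0 of the 44 were higher or lower, against 1.15% and 4.61% of all genes. These counts shifted with the total and with the cells. Without Jchain in the total, which shifted log2 ratios by 0.16, 3 genes were lower, against 7.99% of all genes. Over all UMIs, which shifted log2 ratios by -0.59, 37 were lower, against 74.3% of all genes. Without the cycling cluster 0 were higher and 4 lower, against 2.34% and 5.13% of all genes, and the log2 ratio of Ssr4 became 0.48. In B220- cells 0 of 43 genes were higher in 2NBDG+ cells and 1 was lower, against 1.98% and 5.18% of all 3687 genes tested. The medians were -0.09 for the genes tested among the 44 and -0.08 over all genes, and over all UMIs, which shifted log2 ratios by 0.19, they were 0.10 and 0.11. The gene was Ssr2, at 1.57-fold (1.47 to 1.68) lower, and so the one past the threshold in both 2NBDG comparisons, which share no library. The call in B220- cells was lost without Jchain in the total, over all UMIs, without the cycling cluster, in IgM cells and as a mean over cells. At 2-fold, 0 were higher or lower, against 0.895% and 2.12% of all genes. The log2 ratio of Ssr2 was -1.20 in IgG, -1.77 in IgA and -0.32 in IgM cells. By class, the medians of the 44 genes in this comparison were -0.29 in IgG, -0.59 in IgA and 0.03 in IgM cells.

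Bone marrow and splenic B220-2NBDG+ cells, sorted alike, were close. Of 43 genes, 0 were at least 1.5-fold higher and 0 lower in bone marrow, against 2.23% and 6.25% of all 3490 genes tested. The median log2 ratio was -0.24 against -0.16 over all genes, and 1 of the 43 genes, Srp9, had a ratio above 1. The lowest ratios were those of Copg1, 1.48-fold (1.28 to 1.73) lower, Sec61a1, 1.44-fold (1.30 to 1.59) lower, and Tram1, 1.41-fold (1.34 to 1.49) lower. At 2-fold, 0 were higher or lower as well, against 1.17% and 1.40% of all genes. Bone marrow held 553 IgA, 294 IgM and 84 IgG cells, and the splenic library 214, 558 and 117. Within classes the medians of the 44 genes were -0.33 in IgG, -0.12 in IgA and -0.11 in IgM cells. With TMM scaling factors, which shifted log2 ratios by 0.16, the median of the genes past the minimum was -0.09.

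Antibody classes recur in all 5 libraries, so they could be compared with a test. Within each library the UMIs of a class were added up, giving 15 sums of at least 74 cells, and fitted in edgeR with the library as a block. The labels do not say whether different animals went into each library. The p-values therefore measure only the spread of the class difference over these 5 libraries. All 44 genes were among the 7947 tested. Of the 44, 5 rose in IgG over IgM cells and 0 fell, where 2.62% of all genes tested rose and 3.62% fell. In IgA over IgM cells 4 rose and 2 fell, against 6.33% and 6.87%. In IgG over IgA cells 6 rose and 1 fell, against 4.83% and 4.57%. At an unadjusted p below 0.05 there were 21, 13 and 13 of the 44. The share of all genes at that threshold was not counted, and the percentages above are for adjusted p. Without the library in the model, the call of Mcfd2 in IgA over IgM and that of Kdelr3 in IgG over IgA remained of 18 in all. Over all alternatives run the adjusted p reached 0.0322 and 0.0443 for these 2 calls and 0.068 to 0.746 for the other 16. The median log2 fold change of the 44 was 0.21 for IgG over IgM, against 0.01 over all genes, 0.04 for IgA over IgM and 0.13 for IgG over IgA. The B220-2NBDG- library weighed on the first 2 of these, which were 0.12 and -0.02 without it. In that library the median log2 ratio was 0.63 for IgG over IgM and 0.38 for IgA over IgM, while in the other 4 it lay between 0.00 and 0.30 for IgG over IgM and between -0.23 and -0.08 for IgA over IgM.

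Lman1 was the gene that rose in both switched classes over IgM. It had 311, 664, 967, 437 and 654 CPM in IgG cells, 319, 576, 753, 368 and 774 CPM in IgA cells and 191, 442, 737, 308 and 250.1 CPM in IgM cells, with bone marrow first, then both B220+ libraries and both splenic B220- libraries, 2NBDG+ before 2NBDG-. Both switched classes exceeded IgM in each library. The log2 fold change was 0.65 ± 0.14 (SE) for IgG over IgM (adjusted p = 0.00508, edgeR) and 0.71 ± 0.14 for IgA over IgM (adjusted p = 0.00094, edgeR). The calls held when any 1 library was left out. Its partner Mcfd2 went the other way in IgA cells, with 39.7, 32.8, 39.2, 41.5 and 34.3 CPM in IgA cells and 57.2, 71.4, 64.1, 58.9 and 71.7 CPM in IgM cells. The 2 classes did not overlap, and the log2 fold change of IgA over IgM was -0.62 ± 0.14 (adjusted p = 0.00411, edgeR).

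Kdelr3, the least abundant of the 44, rose in IgA cells over both other classes. It had 6.72, 20.3, 23.8, 10.1 and 28.6 CPM in IgG cells, 22.6, 41.0, 41.7, 30.4 and 39.5 CPM in IgA cells and 14.3, 28.6, 26.1, 19.4 and 13.2 CPM in IgM cells, in the same library order. IgA was the highest class in every library. The log2 fold change was 0.95 ± 0.19 for IgA over IgM (adjusted p = 0.001, edgeR) and -1.23 ± 0.22 for IgG over IgA (adjusted p = 0.000663, edgeR), and both held with any 1 library left out. Srp14, nearly flat across libraries with Jchain in the total, was lowest in IgA cells in all 5. It had 377, 385, 323, 397 and 369 CPM in IgG cells, 251, 252, 267, 263 and 261 CPM in IgA cells and 457, 385, 363, 358 and 351 CPM in IgM cells. The log2 fold change of IgA over IgM was -0.45 ± 0.09 (adjusted p = 0.000846, edgeR), and that of IgG over IgA was 0.36 ± 0.09 (adjusted p = 0.0121, edgeR), the second lost without B220+2NBDG+ cells (adjusted p = 0.0672).

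Ssr4 rose in IgG cells. It had 4339, 6099, 3271, 4891 and 4108 CPM in IgG cells, 2882, 4211, 2416, 2944 and 2853 CPM in IgA cells and 2582, 4388, 3091, 2627 and 2619 CPM in IgM cells, in the same library order. IgG was the highest class in every library. The log2 fold change was 0.52 ± 0.11 over IgM (adjusted p = 0.00292, edgeR) and 0.41 ± 0.11 over IgA (adjusted p = 0.0133, edgeR), and without B220-2NBDG+ cells both calls were lost (adjusted p = 0.0554 and 0.0567). Sar1b had 156, 262, 286, 187 and 261 CPM in IgG cells, 125, 156, 223, 124 and 189 CPM in IgA cells and 154, 177, 221, 151 and 163 CPM in IgM cells. It rose in IgG over IgM, at 0.36 ± 0.09 log2 (adjusted p = 0.0165, edgeR), and in IgG over IgA, at 0.35 ± 0.10 (adjusted p = 0.022, edgeR). The first call was lost without B220+2NBDG+ (adjusted p = 0.161), B220-2NBDG+ (0.0595) or B220-2NBDG- cells (0.0543), and the second without B220+2NBDG+ (0.152), B220+2NBDG- (0.0762) or B220-2NBDG+ cells (0.0708).

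**Figure D5:**
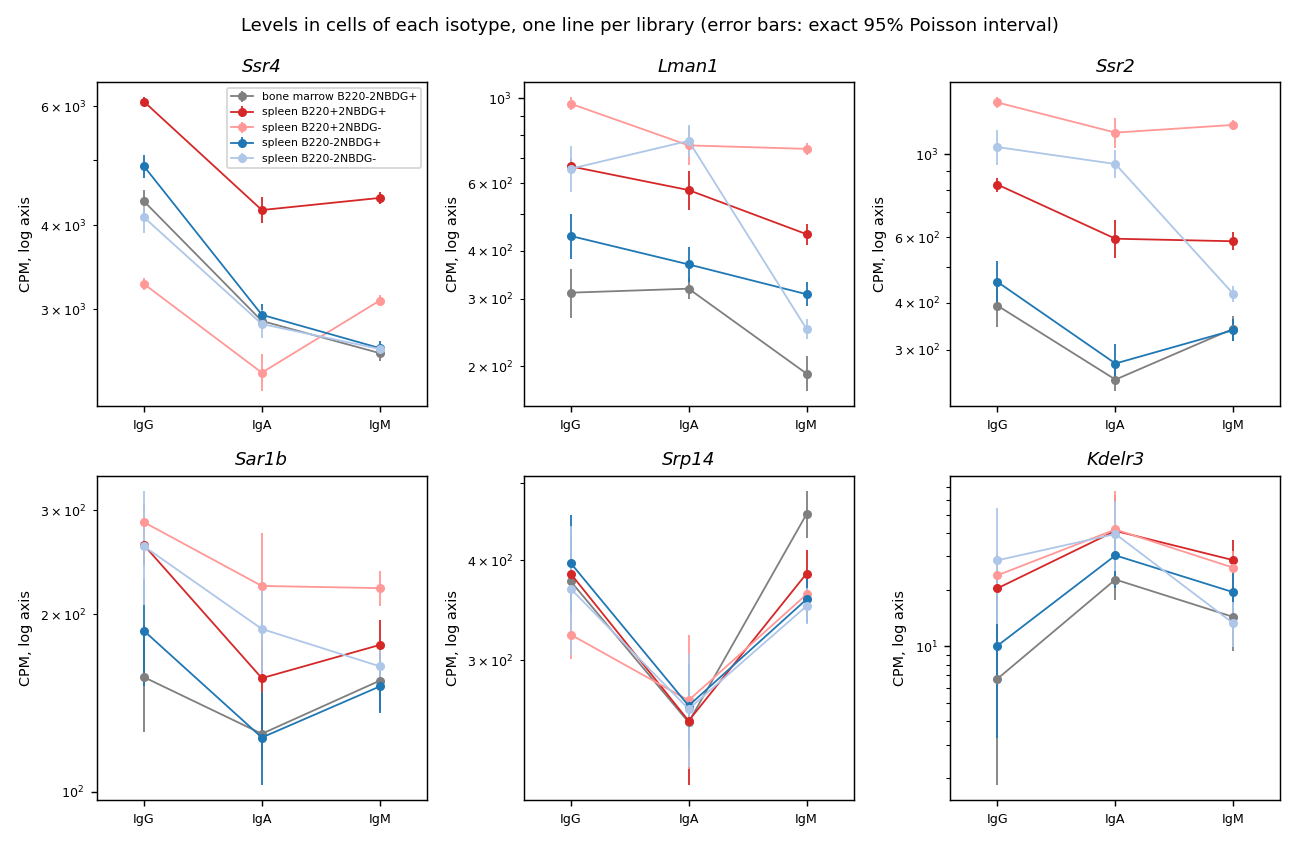
CPM (log axis) of Ssr4, Lman1, Ssr2, Sar1b, Srp14 and Kdelr3 in IgG, IgA and IgM cells, with 1 line per library and exact 95% Poisson intervals. Ssr4 is highest in IgG cells, Kdelr3 highest and Srp14 lowest in IgA cells in each library, and Lman1 is lowest in IgM cells in each.

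Ssr2 and Srp19 were also called in IgG over IgM, and Sec11c and Srp9 in IgA over IgM. Ssr2 had 393, 829, 1376, 455 and 1045 CPM in IgG cells and 341, 585, 1198, 338 and 423 CPM in IgM cells, and Srp19 had 145, 298, 431, 259.9 and 343 CPM in IgG cells and 146, 219.6, 370.4, 150.3 and 158 CPM in IgM cells. IgG exceeded IgM in all 5 libraries for Ssr2 and in 4 for Srp19, most widely in B220-2NBDG- cells. The log2 fold changes were 0.46 ± 0.13 for Ssr2 (adjusted p = 0.0353, edgeR) and 0.46 ± 0.14 for Srp19 (adjusted p = 0.0458, edgeR). Both calls were lost without B220+2NBDG+ cells (adjusted p = 0.138 and 0.146), without B220-2NBDG+ cells (0.096 and 0.219) and without B220-2NBDG- cells (0.0581 and 0.108). Sec11c rose in IgA over IgM by 0.35 ± 0.09 log2 (adjusted p = 0.00823, edgeR; 0.0628 without B220-2NBDG- cells). Srp9 rose by 0.33 ± 0.10 (adjusted p = 0.0347, edgeR). That call was lost without B220+2NBDG+ (0.0812), B220-2NBDG+ (0.0895) or B220-2NBDG- cells (0.234). Without TMM factors the calls of Sec11c (adjusted p = 0.144, edgeR) and Srp9 (0.263) were lost, and with no filter on genes that of Srp9 (0.0706). In B220-2NBDG- cells Sec11c had 3517 CPM in IgA and 2071 in IgM cells, and Srp9 1389 and 753. In the other 4 libraries IgA cells had 2347, 3026, 3218 and 2353 CPM of Sec11c, against 2062, 2803, 3053 and 2197 CPM in IgM cells. For Srp9 they had 711, 1088, 1209 and 694 CPM, against 702, 996, 1140 and 697 CPM in IgM cells. IgA thus exceeded IgM in 4 of the 5 libraries for Srp9.

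Tmed10, Mcfd2 and Arf4 rose in IgG over IgA, by 0.33 ± 0.09, 0.50 ± 0.16 and 0.28 ± 0.09 log2 (adjusted p = 0.0208, 0.0492 and 0.0493, edgeR), with IgG above IgA in 5 of 5 libraries for each. Tmed10 had 1264, 1711, 1537, 1531 and 1493 CPM in IgG cells and 848, 1154, 1194, 911 and 1362 CPM in IgA cells. Arf4 had 432, 589.9, 611, 600.3 and 664 CPM in IgG cells and 354, 436, 432, 405 and 509 CPM in IgA cells. The classes did not overlap for Mcfd2, whose IgG cells had 56.9 to 70.5 CPM. The Tmed10 call was lost without B220+2NBDG+ (adjusted p = 0.0946), B220+2NBDG- (0.06) or B220-2NBDG+ cells (0.13). The Arf4 call was lost without B220+2NBDG+ (0.116), B220+2NBDG- (0.194), B220-2NBDG+ (0.154) or B220-2NBDG- cells (0.0958), and the Mcfd2 call without any 1 of the 5 (0.0706 to 0.133).

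Of 67 further genes of the same pathway listed beside the 44, 65 were in the tables and 46 to 49 were past the minimum level in a comparison. In B220+ over B220- cells 8 of 49 were at least 1.5-fold higher and 3 lower among 2NBDG- cells, and 1 of 49 higher among 2NBDG+ cells. By the same rule 21.0% of all genes were higher and 6.41% lower among 2NBDG- cells, and 9.02% higher among 2NBDG+ cells. Sec23a, an inner COPII coat subunit, had 61.4 CPM in B220+2NBDG- and 24.6 CPM in B220-2NBDG- cells, a ratio of 2.49 (2.04 to 3.07). Sec24a, its coat partner, was 1.80-fold higher (1.57 to 2.08), while Copz2, a COPI subunit, had 38.7 against 68.6 CPM and Lman2l, a lectin related to Lman2, 17.0 against 29.1 CPM. Ergic1, a membrane protein of the intermediate compartment, was 1.76-fold higher (1.60 to 1.94) in B220+2NBDG+ than in B220-2NBDG+ cells. In 2NBDG+ over 2NBDG- cells, 2 of 49 were higher and 3 lower among B220+ cells and 0 of 46 apart among B220- cells, and 2 of 46 were lower in bone marrow than in spleen. Of all genes, 3.61% were higher and 14.4% lower with 2NBDG among B220+ cells, 1.98% and 5.18% among B220- cells, and 6.25% lower in bone marrow. The medians over these genes were 0.40 and 0.24 log2 in the B220 comparisons of 2NBDG- and 2NBDG+ cells, against 0.24 and 0.14 over all genes.

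The 18 genes with ACGTGG before or just after their start had B220 ratios whose range overlapped that of the 16 without it. In 2NBDG- cells the median log2 ratio was 0.61 with the letters (range -0.16 to 1.11, 10 past 1.5-fold) and 0.50 without (0.00 to 0.93, 7 past 1.5-fold). In 2NBDG+ cells it was 0.29 with them and 0.38 without. The median was -0.46 with them and -0.23 without for 2NBDG+ over 2NBDG- among B220+ cells, -0.09 and -0.07 among B220- cells, and -0.29 and -0.16 for bone marrow over spleen. Of the 4 genes whose promoters are printed above, Copb2 and Sec24d have the longer match, which for Copb2 runs past the stretch shown. Their B220 ratios in 2NBDG- cells were 2.15 and 2.07. Ssr3 has the core and 1.77, and Ssr4 has neither and 1.13. Copb2 and Sec24d were printed for their ratios, and Ssr3 and Ssr4 for unlike patterns, so these 4 cannot show whether match and ratio go together. Of the other genes with the longer match, Arf1 was under 1.5-fold in 2NBDG- cells, and Copb1 and Kdelr3 were past it. Mcfd2, with the lowest ratio of the 44, has the core in 2 places.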

How the data were processed

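The deposited tables hold UMI counts per gene and cell barcode, raw and whole, 1 table per library. The authors made these counts with Cell Ranger 2.1 on GRCm38, per the submitters' processing notes. Their annotation, barcode filter and use of strand are not stated there. Of 33456 gene identifiers, 32655 were found in GENCODE M21, which gave coordinates (counted from 1) and, with 11 recognised by symbol only, 266 immunoglobulin genes. The 44 genes, the lists and the tests were chosen with earlier results of these data known.

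The 5 libraries were pooled for clustering, with immunoglobulin genes excluded (scanpy 1.11.5, leidenalg 0.10.2, 2000 variable genes, 30 principal components, 15 neighbours, resolution 1). A T cell-like cluster of 8 cells was left out, 7 of them in B220+2NBDG- and 1 in B220-2NBDG-, which left 5468 cells. The cycling cell-like cluster (210 cells) was kept, as were 69 predicted doublets (1.26%), and both were left out as alternatives. UMIs were summed per library. A gene was counted as apart from a ratio of 1.5, where the higher library reached 25 CPM and 50 UMIs. Ratios have exact conditional binomial intervals and levels exact Poisson intervals, at 95%, for counting error only. A cell was assigned to a class with at least 10 heavy-chain constant UMIs, 70% of them of 1 class, with the IgG subclasses added together, and 51 cells were IgE or unassigned. Classes were compared with edgeR 4.0.16 in R 4.3.3, and DESeq2 1.42.0 was an alternative. The edgeR test was quasi-likelihood, with TMM factors of the class sums, filterByExpr, library as block and Benjamini-Hochberg adjustment over all genes at 0.05. The TMM factors of the 5 library sums, an alternative scale for the ratios between libraries, were 0.875 to 1.10. The library labels pair the classes, since each library gives 1 sum per class.

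Values in every library are given for genes at least 2-fold apart in a comparison, genes apart the same way in both B220 or both 2NBDG comparisons, the most abundant gene of each role, and those called between classes (up to 10 per comparison). Of the further pathway genes, up to 4 per comparison are named by size of ratio. Both calculations were tested on simulated data. IgM or IgG cells without the cycling cluster were an alternative chosen after seeing the data.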

Additional observations from a re-analysis of the deposited data

How the results depend on the processing

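The smallest sums of a class held 74 to 97 cells, which limits their depth, and with 1 library per group no alternative stands in for replicates. No paired analysis was possible because each group has 1 library in the comparisons between libraries. Counts below are of the 44 genes at least 1.5-fold apart, higher or lower.
In 2NBDG- cells, the 23 genes higher in B220+ became 15 without Jchain in the total, 40 over all UMIs, 6 at 2-fold, 2 in IgG cells (2 also without the cycling cluster) and 1 in IgA cells. Over all UMIs, 72.4% of all genes were higher. In 2NBDG+ cells the 4 genes higher in B220+ became 2 without Jchain, 1 over all UMIs, 1 at 2-fold and 2 in IgM cells, with or without the cycling cluster. Among B220+ cells the 1 gene higher in 2NBDG+ became 0 over all UMIs, at 2-fold, without the cycling cluster and in IgM cells, and 0 in IgM or IgG cells without that cluster. The 7 lower became 3 without Jchain, 37 over all UMIs, 4 with TMM factors, 0 at 2-fold, 4 without the cycling cluster, 16 in IgM cells, 4 in IgG cells (1 without the cycling cluster) and 15 in IgA cells. Among B220- cells the 1 lower became 0 without Jchain, over all UMIs, at 2-fold, without the cycling cluster, in IgM cells with or without that cluster and as a mean over cells, 2 in IgG cells (3 without the cycling cluster) and 21 in IgA cells. In those IgA cells 36.6% of all genes were lower, and in the IgG cells 9.36% (7.58% without the cycling cluster). The 0 lower in bone marrow became 3 over all UMIs, 1 without doublets, 1 in IgM cells (with or without the cycling cluster), 6 in IgG cells (4 without that cluster), 1 in IgA cells and 1 as a mean over cells. Of all genes, 8.40% were lower there over all UMIs, 6.71% in IgM cells, 14.1% in IgG cells (13.6% without that cluster) and 3.50% in IgA cells. The cause of these changes in the counts was not tested, beyond the shift that each total brings.
Between classes, the model with no replicate block called 0 genes higher for IgG over IgM, 0 higher and 1 lower for IgA over IgM, and 0 higher for IgG over IgA. Library totals without TMM gave 3 higher for IgG over IgM, 2 higher and 4 lower for IgA over IgM, and 11 higher for IgG over IgA. DESeq2 and the fit with no filter each gave 4 lower for IgA over IgM. With 1 library left out, the calls higher ranged from 1 to 9 for IgG over IgM (5 with all), from 2 to 4 for IgA over IgM (4 with all) and from 1 to 7 for IgG over IgA (6 with all). Of the other counts, 184 stayed within 1.5 times the value given, and a single-gene call was lost in 60 of the gene and alternative pairs. The distance between the median of the 44 genes and that of all genes tested changed sign in 9 cases, within cells of 1 class or among B220- cells by 2NBDG, where it was -0.00199 log2.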
